A study of Mus musculus with 12 samples.

Results

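The 10 genes described here encode CDK inhibitors, G1 cyclins and the retinoblastoma protein. They are *Cdkn1a*, *Cdkn1b* and *Cdkn1c* of the CIP/KIP family, *Cdkn2a* and *Cdkn2c* of the INK4 family, the D cyclins *Ccnd1*, *Ccnd2* and *Ccnd3*, the E cyclin *Ccne1*, and *Rb1*. They were taken by symbol from the 55304 genes of the expression table, and all 10 had 1 row each. All 10 also passed the filter on low values that left 24736 genes for testing.

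The libraries were made from corticotrophs, the pituitary cells that release ACTH, of male *Pomc*-eGFP mice on a C57Bl6/J background. The transgene, which the control mice carried too, marks cells that use the *Pomc* promoter, so that green cells could be sorted from dissociated anterior pituitaries after the posterior and intermediate lobes had been removed. The mice entered the 8 week protocol at 8 weeks of age. Control mice drank standard water throughout. DEX mice had the synthetic glucocorticoid dexamethasone at 2.5 µg/ml in their water for the last 4 weeks. Mice of the 2 withdrawal groups had the same 4 weeks of DEX followed by 7 or 28 days of standard water, called 1 week and 4 weeks after withdrawal below. Each group had 3 pools, and each pool held the sorted cells of 2 to 3 pituitaries of cage mates, so the error between pools is not that between single mice. All 5 corticotroph markers (*Pomc*, *Tbx19*, *Crhr1*, *Avpr1b* and *Neurod1*) were detected in every pool. Their sum, nearly all of it *Pomc*, was 34935 to 75012 normalised counts in control pools, 5317 to 9173 in DEX pools, 43676 to 285385 at 1 week and 48354 to 80547 at 4 weeks. Not every other marker followed it. *Tbx19*, a transcription factor of the lineage, held 218 to 459 normalised counts in control and 498 to 1490 in DEX pools, *Avpr1b*, a vasopressin receptor, 12.1 to 60.0 and 67.9 to 130, and *Neurod1* 22.3 to 44.3 and 27.1 to 28.9. In 1 week pool 3 *Tbx19* was 39.5, *Crhr1* 12.5 and *Avpr1b* 1.56, the lowest of the 12 pools for each. The growth hormone and releasing hormone receptor genes *Gh* and *Ghrhr*, which mark somatotrophs, summed to 67667 to 265990 over the 12 pools, so the sorted RNA was not of corticotrophs alone. In such bulk RNA, fewer cells of a type and less RNA per cell cannot be told apart.

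In a resting cell, D cyclins are made in response to growth signals and activate CDK4 and CDK6, which phosphorylate the retinoblastoma protein and release E2F factors. E2F factors then switch on the genes of S phase, among them those of the E cyclins, which activate CDK2. INK4 proteins block CDK4 and CDK6, while CIP/KIP proteins bind the assembled cyclin and CDK complexes, and the restraint they impose is well known in the pituitary, where loss of *Rb1*, *Cdkn1b* or *Cdkn2c* gives tumours in mice.

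Values are normalised counts, meaning CPM of a library size scaled by the TMM method, and rest on 7719894 to 12848078 reads on genes in each library. One read was worth 0.0787 to 0.127 normalised counts. Changes are differences of log2(value + 0.1), tested with limma, and an adjusted p is the Benjamini-Hochberg value over all 24736 genes, called below 0.05. Because the genes were picked with earlier results known, no p was adjusted over the 10 alone.

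The promoters of *Cdkn1a* are shown because its values set the withdrawal pools apart from all others, and because the p53 protein, its best known activator, binds there. RefSeq (GRCm38.p6) gives the gene 2 starts on the plus strand of chromosome 17. The 250 bases before the upstream start hold the paired core of a p53 response element, here in capitals and searched as CATGNNNNNNCATG, which reads alike on both strands. The 250 bases before the downstream start hold 2 GC boxes, in capitals and searched as GGGCGG on both strands.
Cdkn1a upstream start, chr17:29090729-29090978, plus strand: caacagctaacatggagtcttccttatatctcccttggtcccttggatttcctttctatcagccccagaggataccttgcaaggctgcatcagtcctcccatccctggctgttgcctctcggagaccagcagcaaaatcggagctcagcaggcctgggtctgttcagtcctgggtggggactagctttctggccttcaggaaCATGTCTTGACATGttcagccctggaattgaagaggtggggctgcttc
Cdkn1a downstream start, chr17:29093519-29093768, plus strand: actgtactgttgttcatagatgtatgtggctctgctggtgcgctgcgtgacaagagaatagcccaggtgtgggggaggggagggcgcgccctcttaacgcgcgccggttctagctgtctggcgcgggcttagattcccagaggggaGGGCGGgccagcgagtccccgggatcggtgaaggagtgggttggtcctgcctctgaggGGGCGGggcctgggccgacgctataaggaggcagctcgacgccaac
The paired p53 core stood in 0.490% of 32851 promoter windows of the same length, and the GC box in 32.7%. Neither window held the glucocorticoid receptor motif AGAACA, present in 16.1% of windows, or the E2F letters TTTGGCGC and TTTCGCGC, present in 0.417% and 0.256%. Windows were found for 6 of the 10 genes, 10 windows in all, and the paired p53 core stood in no other of them. A match is a description of letters, and expression data do not show which start was used.

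Across the 4 groups, 0 of the 10 genes passed limma's F test, against 78 of all genes tested (0.315%). At an unadjusted p under 0.05 the test held 2 of the 10, *Ccnd1* (adjusted p = 0.108) and *Cdkn1a* (adjusted p = 0.121), beside 9.21% of all genes. The other tools counted differently. On the recovered whole reads edgeR's quasi-likelihood test called 0 of the 10 (0.667% of all genes), edgeR's likelihood ratio test called *Cdkn1a* (4.23%) and DESeq2 called both (3.68%). In single contrasts limma also called 0 of the 10, where the shares over all genes were 0.121% for DEX against control, 0% for 1 week and for 4 weeks against control, 0.433% for 1 week against DEX, 0.873% for 4 weeks against DEX and 0% for 4 weeks against 1 week. At an unadjusted p under 0.05 these contrasts held 2, 1, 1, 3, 3 and 1 of the 10, beside 6.8%, 3.79%, 6.35%, 10.8%, 9.94% and 5.47% of all genes.

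**Figure D1:**
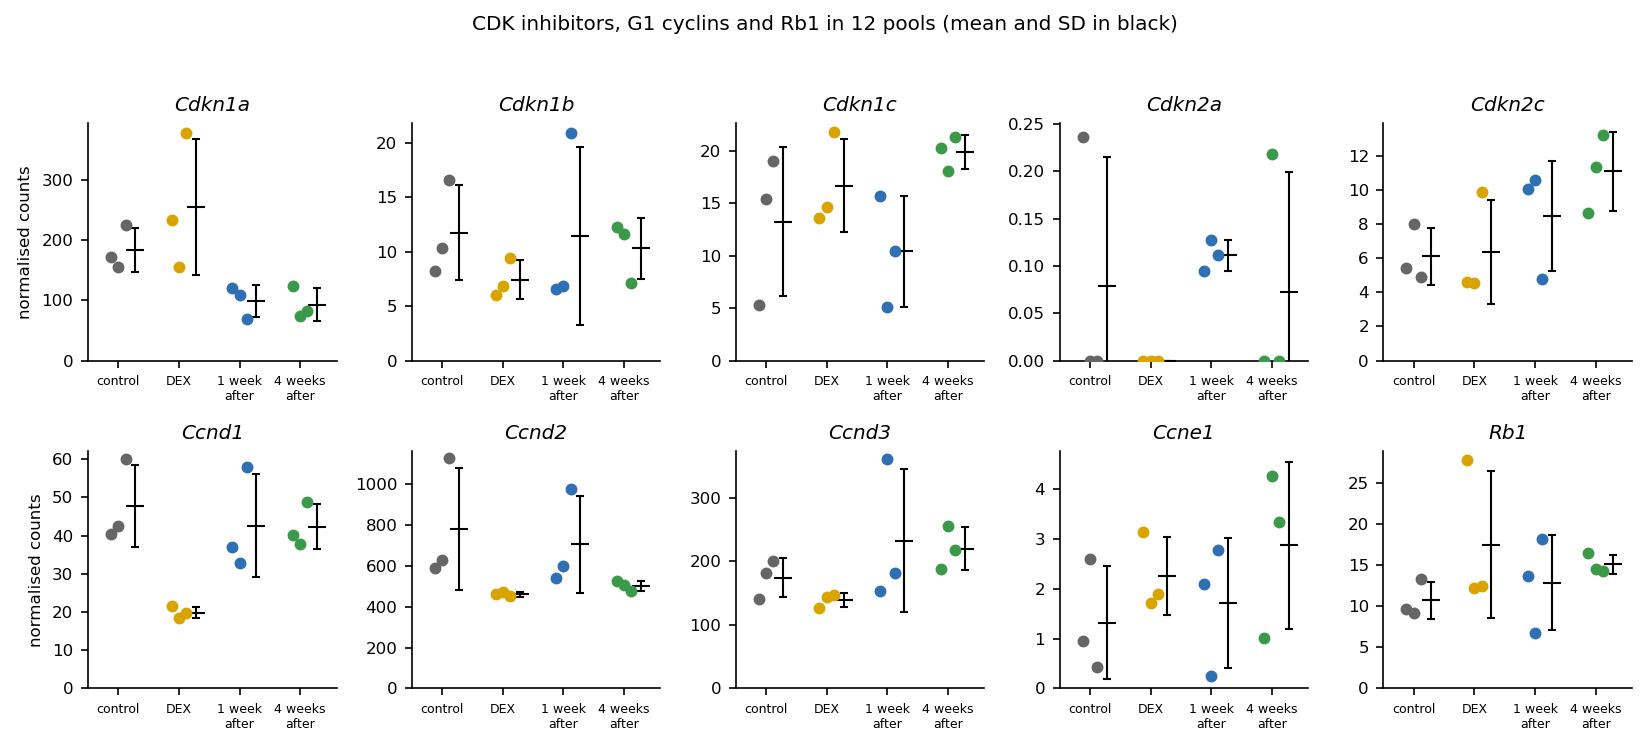
Normalised counts (y axis, linear from 0) of the 10 genes in each of the 12 pools by group, with the mean and SD of 3 pools in black. The 3 DEX pools of Ccnd1 lie between 18.4 and 21.5, under every other pool, and the 6 pools of Cdkn1a after withdrawal lie between 69.4 and 124, under every control and DEX pool.

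*Cdkn1a* (p21, chromosome 17, 29090976 to 29100727, GRCm38) binds cyclin and CDK complexes and halts the cycle after stress. Control pools 1, 2 and 3 held 173, 155 and 226 normalised counts. DEX pools held 233, 155 and 379, the pools 1 week after withdrawal 120.0, 108 and 69.4, and those 4 weeks after withdrawal 124, 73.3 and 82.7. Control and DEX pools overlapped, whereas all 6 withdrawal pools lay below all 6 others. How many of all genes had the withdrawal pools apart in this way was not counted. The mean was 184 ± 36.8 for control and 256 ± 113 for DEX pools (SD, n = 3), and it was 99.2 ± 26.5 and 93.2 ± 26.7 after 1 and 4 weeks of withdrawal.

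Against control, the log2 fold change of *Cdkn1a* was 0.39 under DEX (95% interval −0.31 to 1.10), −0.91 at 1 week (−1.61 to −0.21) and −1.00 at 4 weeks (−1.70 to −0.30). The adjusted p was 1 at 1 week and 0.633 at 4 weeks in limma. Against DEX the log2 fold change was −1.31 at 1 week (95% interval −2.01 to −0.61, limma adjusted p = 0.0965). It was −1.40 at 4 weeks (−2.10 to −0.69, limma adjusted p = 0.0648). Both intervals left out 0, and both changes missed the threshold over all genes. The change between 1 and 4 weeks was −0.09 (95% interval −0.79 to 0.61). The change at 4 weeks against DEX passed the threshold in 9 of 27 other settings. Among them were the fits that left out DEX pool 2 (adjusted p = 0.0386 in limma), 1 week pool 2 (0.0478) or 1 week pool 3 (0.0293). The 1 week pools are not part of this contrast, so leaving either out changes the shared spread and not the fold change. Without 1 week pool 3 the contrast held 1.68% of all genes, against 0.873% with every pool. Over all settings the adjusted p ran from 0.00303 to 0.303.

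*Cdkn1b* (p27, chromosome 6, 134920401 to 134925513) is the inhibitor that holds cells in quiescence. Its control pools held 8.26, 10.4 and 16.6 normalised counts and DEX pools 6.05, 6.87 and 9.42. At 1 week the pools held 6.56, 6.88 and 20.9, and at 4 weeks 12.3, 11.6 and 7.13. No pair of groups was separate, and the highest values came from control pool 3 and 1 week pool 3. The log2 fold change of DEX against control was −0.61 (95% interval −1.55 to 0.32), so these pools do not separate a fall from a small rise.

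*Cdkn1c* (p57, chromosome 7, 143458339 to 143461050), an imprinted inhibitor of cells leaving the cycle, had 5.27, 15.4 and 19.0 normalised counts in control pools and 13.6, 14.6 and 21.8 in DEX pools. The pools held 15.7, 5.10 and 10.5 at 1 week, and 20.2, 18.1 and 21.3 at 4 weeks. The 3 pools at 4 weeks lay close together and above all 3 at 1 week, with a log2 fold change of 1.06 (95% interval 0.09 to 2.04; limma adjusted p = 0.859). Of all genes, 8.92% had separate groups in that comparison in either direction.

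*Cdkn2a* (p16 and ARF, chromosome 4, 89274471 to 89294653) was at the limit of detection. Control pool 1 held 3 reads and the other control pools 0. All 3 DEX pools held 0, each pool at 1 week held 1 read, and the pools at 4 weeks held 0, 2 and 0. Every library was thus at or under the floor of 3 reads, and no fold change is given. The 1 week and DEX pools count as separate only by 1 read against 0.

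*Cdkn2c* (p18, chromosome 4, 109660876 to 109667189), an inhibitor of CDK4 and CDK6, held 5.43, 8.01 and 4.89 normalised counts in control pools, 4.64, 4.58 and 9.87 in DEX pools, 10.1, 10.6 and 4.78 at 1 week and 8.68, 11.4 and 13.3 at 4 weeks. The pools at 4 weeks lay above all control pools, with DEX pool 3 the only DEX pool inside their range. The log2 fold change at 4 weeks was 0.86 against control (95% interval −0.01 to 1.74; limma adjusted p = 0.792) and 0.87 against DEX (limma adjusted p = 0.503).

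*Ccnd1* (cyclin D1, chromosome 7, 144929931 to 144939925), the D cyclin most often tied to growth factor signals, was lowest under DEX. Control pools held 40.5, 42.4 and 60.0 normalised counts, and DEX pools 21.5, 18.4 and 19.7. The pools held 37.0, 32.9 and 57.9 at 1 week, and 40.3, 37.8 and 48.9 at 4 weeks. All 9 pools outside the DEX group lay above the highest DEX pool, and the withdrawal pools overlapped the control range. The share of all genes with DEX pools apart from the 9 others was not counted. The mean was 47.6 ± 10.8 for control and 19.9 ± 1.53 for DEX pools (SD, n = 3), and it was 42.6 ± 13.4 and 42.3 ± 5.84 after 1 and 4 weeks of withdrawal.

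The log2 fold change of *Ccnd1* under DEX was −1.24 against control (standard error 0.263, 95% interval −1.80 to −0.68; limma adjusted p = 0.0971). It was 1.06 from DEX to 1 week (limma adjusted p = 0.0910) and 1.08 from DEX to 4 weeks (limma adjusted p = 0.0701). These 3 contrasts share the DEX pools. Against control, the withdrawal groups differed by −0.18 at 1 week (95% interval −0.74 to 0.38) and −0.16 at 4 weeks (−0.72 to 0.40). With 1 week pool 3 left out, *Ccnd1* passed the F test (adjusted p = 0.0490, beside 0.777% of all genes). With control pool 3 left out as well, a setting chosen after the data were seen, it did so at 0.0355 (1.11% of all genes). These 2 pools held the highest values of *Ccnd1*, so the fits without them are no separate support. The change from DEX to 4 weeks passed in 6 of 27 other settings. Among them were the fits without 1 week pool 2 (adjusted p = 0.0421 in limma) or 1 week pool 3 (0.0281). Neither pool is part of that contrast, which held 1.68% of all genes without 1 week pool 3 and 0.873% with every pool. Over all of the settings the adjusted p of the change ran from 0.00252 to 0.282.

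*Ccnd2* (cyclin D2, chromosome 6, 127125162 to 127152193) had the highest level per kilobase of the 10 in control pools, as given below. These held 590.0, 628 and 1129 normalised counts, and DEX pools held 461, 474 and 450.2. The pools held 541, 598 and 977 at 1 week, and 525, 505 and 475 at 4 weeks. DEX pools lay under all control pools, as those of *Ccnd1* did, while 6.23% of all genes had DEX pools separate and lower. The log2 fold change was −0.70 under DEX (95% interval −1.36 to −0.03; limma adjusted p = 0.703), −0.13 at 1 week and −0.58 at 4 weeks (−1.24 to 0.09; limma adjusted p = 0.811). Unlike *Ccnd1*, the pools at 4 weeks lay below all control pools as well, at 502 ± 25.2 against 782 ± 301 (SD, n = 3), but the difference between the 2 genes was not tested.

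*Ccnd3* (cyclin D3, chromosome 17, 47505051 to 47599691) held 141, 181 and 201 normalised counts in control pools and 126, 143 and 147 in DEX pools. It held 154, 361 and 182 at 1 week and 188, 255 and 218 at 4 weeks. All withdrawal pools lay above all DEX pools, and 1 week pool 2 stood highest. The log2 fold change against DEX was 0.64 at 1 week (95% interval 0.01 to 1.27; limma adjusted p = 0.452) and 0.66 at 4 weeks (0.03 to 1.29; limma adjusted p = 0.473), and −0.32 for DEX against control (−0.94 to 0.31).

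*Ccne1* (cyclin E1, chromosome 7, 38097984 to 38107534), which activates CDK2 at the start of S phase, rested on 2 to 39 reads per library. Control pools held 0.944, 2.59 and 0.435 normalised counts, DEX pools 3.15, 1.72 and 1.91, 1 week pools 2.09, 0.255 and 2.78, and 4 week pools 1.02, 4.27 and 3.34. Every pair of groups overlapped. The 95% interval of DEX against control ran from −0.75 to 2.73 on the log2 scale, so the pools do not separate a rise from a fall.

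*Rb1* (chromosome 14, 73183673 to 73325822), the target of the D cyclin kinases, held 9.68, 9.19 and 13.3 normalised counts in control pools and 27.8, 12.3 and 12.5 in DEX pools. It held 13.7, 6.76 and 18.2 at 1 week and 16.4, 14.6 and 14.3 at 4 weeks. The 4 week pools lay above all control pools, with a log2 fold change of 0.51 (95% interval −0.32 to 1.33; limma adjusted p = 0.889), and DEX pool 1 stood above all others.

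Groups that do not overlap are common in this table, and the counts over the 10 genes are read against that. Either direction counted, DEX and control were separate for 2 of the 10 (*Ccnd1* and *Ccnd2*, both lower; 12.8% of all genes), 1 week and control for 1 (*Cdkn1a*, lower; 6.08%), and 4 weeks and control for 4 (*Cdkn2c* and *Rb1* higher, *Cdkn1a* and *Ccnd2* lower; 13.2%). Against DEX, 5 of the 10 were separate at 1 week (13.8%) and 4 at 4 weeks (19.5%). *Ccnd1*, *Ccnd2* and *Ccnd3* were higher and *Cdkn1a* lower both times, and the fifth at 1 week was *Cdkn2a*. For *Ccnd2* the lowest pool at 4 weeks (475.0) barely exceeded the highest DEX pool (473.8). The log2 fold change of *Ccnd2* there was 0.12 (limma adjusted p = 0.962), and it turned negative with plain CPM. With 10 chosen genes the shares carry a wide error.

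**Figure D2:**
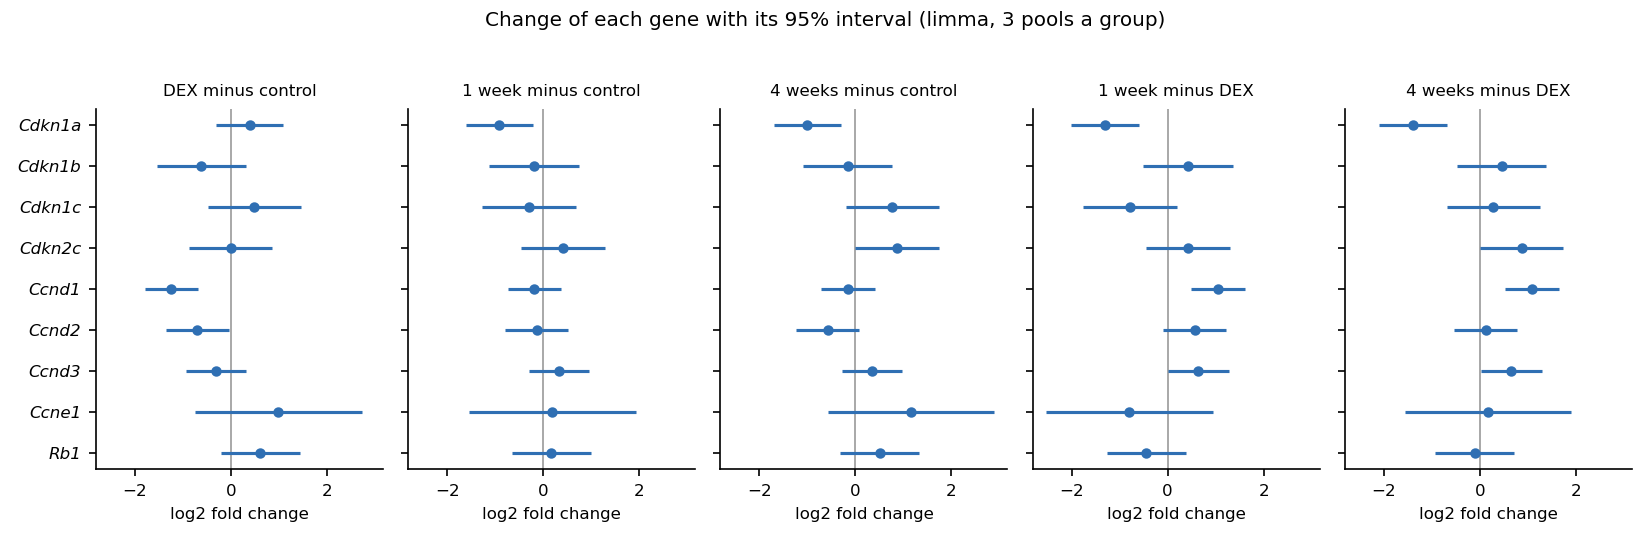
Log2 fold change (x axis) of 9 of the 10 genes in 5 contrasts, points with 95% intervals from limma (3 pools a group); Cdkn2a, at or under 3 reads in every library, is left out. Only intervals of Cdkn1a and Ccnd1 stay beyond 0.4 on one side of 0, Ccnd1 in the 3 panels that involve DEX and Cdkn1a against DEX.

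Per kilobase of exon, the order of levels in control pools was *Ccnd2* (83.1 ± 31.9 normalised counts per kb), *Cdkn1a* (51.9 ± 10.4), *Ccnd3* (19.9 ± 3.48), *Ccnd1* (10.1 ± 2.28), *Cdkn1c* (6.50 ± 3.50), *Cdkn1b* (2.58 ± 0.957), *Cdkn2c* (2.27 ± 0.621), *Rb1* (1.78 ± 0.370), *Ccne1* (0.497 ± 0.423) and *Cdkn2a* (SD, n = 3). *Ccnd2* and *Cdkn1a* had overlapping ranges, as had all neighbours from *Ccnd1* to *Rb1*, while *Ccnd3* stood apart on both sides. In DEX pools the mean of *Cdkn1a*, 71.9 ± 31.9, came before that of *Ccnd2*, 49.1 ± 1.25, again with overlapping ranges. In both withdrawal groups *Ccnd2* (75.0 and 53.3) stood above *Cdkn1a* (27.9 and 26.2) with no overlap. *Cdkn1c* (8.17 ± 2.18) stood above *Ccnd1* (4.22 ± 0.325) without overlap in DEX pools.

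Some of these genes share exon bases with a gene on the other strand. The cDNA and library kits used do not mark strand although the authors counted by strand, so reads of such pairs cannot be told apart in the shared stretch. *Ccnd3* shares 361 exon bases with *Bysl*, a ribosome assembly gene, whose value was 30.7% to 36.5% of that of *Ccnd3* in all 12 pools. In 1 week pool 2, where *Ccnd3* was 361, *Bysl* was 124, also its highest. *Ccnd1* shares 1100 bases with *LTO1*, which held 17.7, 18.0 and 38.9 normalised counts in control and 15.6, 18.4 and 18.7 in DEX pools. It was lowest in DEX pool 1, and its control and DEX ranges overlapped where those of *Ccnd1* did not, and the ratio of the pair ran from 38.6% to 100%. *Cdkn1c* shares 625 bases with *Gm44732*, which stood at 24.2% to 59.7% of it. *Rb1* shares 488 bases with *Rcbtb2*, whose normalised count was 112% to 753% of that of *Rb1*. How many reads of each pair came from the shared bases was not tested.

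**Figure D3:**
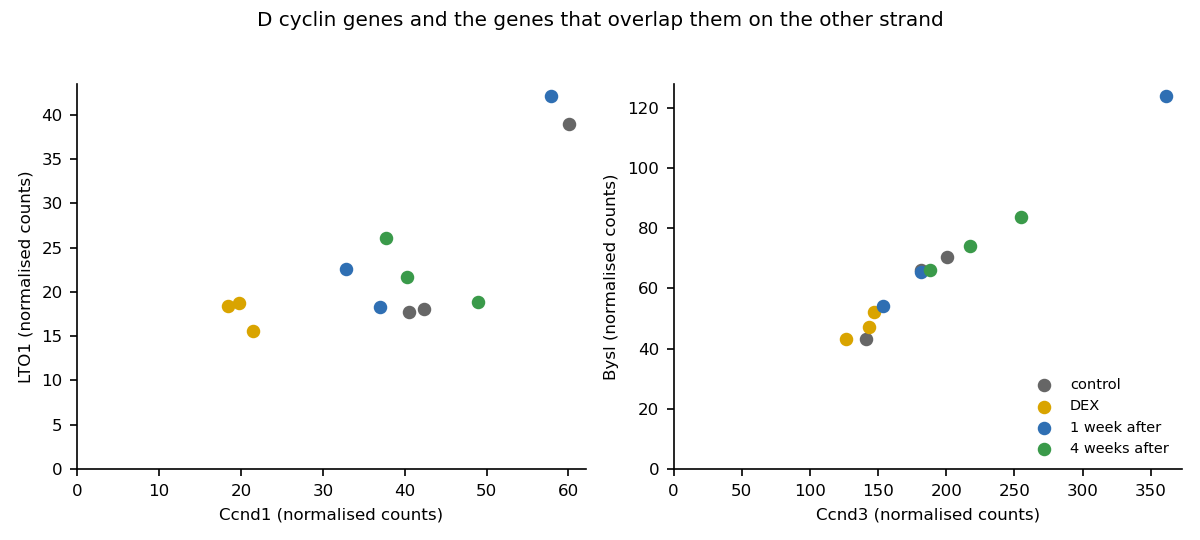
Normalised counts of Ccnd1 and LTO1 (left) and of Ccnd3 and Bysl (right) in the 12 pools, 1 point a pool, both axes linear from 0. Bysl tracks Ccnd3 along 1 line at 30.7% to 36.5% of it, whereas the 3 DEX pools lie apart from all others for Ccnd1 and, at 15.6 to 18.7, reach into the range of the others (17.7 to 42.1) for LTO1.

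Markers of other cell types also differed between the groups. The 6 endothelial markers (*Pecam1*, *Kdr*, *Cdh5*, *Emcn*, *Plvap* and *Tek*) summed to 3.15 to 7.85 normalised counts in DEX pools, where 1 to 2 of them were at 0. The sums were 6.77 to 62.8 in control pools, 25.9 to 162 at 1 week and 78.5 to 148 at 4 weeks. The 6 pericyte and fibroblast markers (*Pdgfrb*, *Col1a1*, *Col3a1*, *Dcn*, *Lum* and *Rgs5*) summed to 1.12 to 8.50 in DEX pools. Up to 3 of them were at 0 there. They summed to 5.35 to 27.5 in control, 11.4 to 34.7 at 1 week and 43.6 to 63.6 at 4 weeks. This sum lay mainly in *Dcn*, with means of 11.5 in control, 2.18 in DEX and 32.3 in 4 week pools. On the log2 scale all 6 were lower than control under DEX and 2 at 1 week. At 4 weeks 1 was lower, *Rgs5* (mean 0.484, against 0.771 in control). The endothelial and the pericyte and fibroblast sums stood lower in DEX pools, where *Ccnd1* was lowest, than in every other pool except control pool 1. In control pool 1 the sums were 6.77 and 5.35, and *Ccnd1* was 40.5. At 4 weeks both sums lay above those of all control pools, while the mean of *Ccnd1* was 42.3, against 47.6 in control.

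The 7 macrophage and leukocyte markers (*Ptprc*, *Csf1r*, *C1qa*, *Cd74*, *Lyz2*, *Cd3e* and *Cd79a*) summed to 24.4 to 36.3 in DEX pools, 53.5 to 130 in control, 87.5 to 142 at 1 week and 101 to 214 at 4 weeks. The lower sum under DEX lay mainly in *Cd74*, with a mean of 58.6 in control and 6.19 in DEX pools. On the log2 scale 5 of the 7 were lower under DEX than in control and 2 were higher. The means of *Csf1r* were 9.61 in control and 10.975 in DEX pools, and those of *Lyz2* were 9.87 and 12.3. At 4 weeks the sums of other pituitary markers were high as well. The 2 thyrotroph markers (*Tshb* and *Trhr*) summed to 452 to 711 there, against 123 to 277 in control, 43.9 to 258 in DEX and 133 to 306 in 1 week pools. The 4 markers of stem and folliculostellate cells (*Sox2*, *Sox9*, *Aldh1a2* and *S100b*) summed to 113 to 148, against 60.9 to 99.7, 58.6 to 71.0 and 60.3 to 77.8. The height of that sum lay mainly in *Aldh1a2*, with a mean of 43.0 in control and 91.5 at 4 weeks. For *Sox2* the same means were 5.17 and 7.05, for *Sox9* 26.4 and 27.6, and for *S100b*, the lower one at 4 weeks, 0.131 and 0.0730. The part of these cells in the differences of the 10 genes was not tested.

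**Figure D4:**
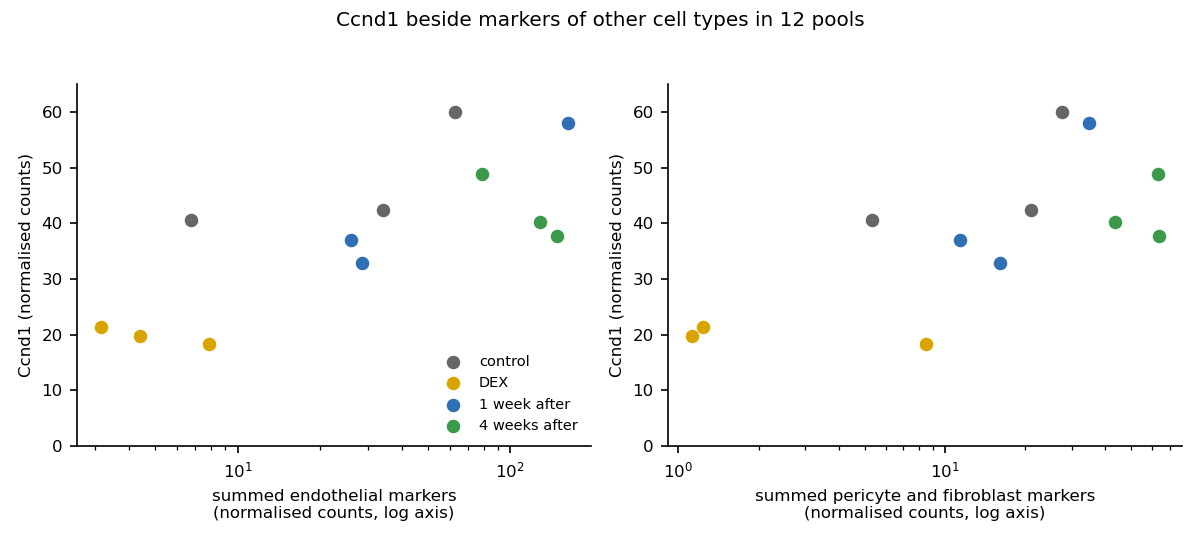
Ccnd1 (y axis, normalised counts, linear from 0) against the summed endothelial markers (left) and pericyte and fibroblast markers (right; both on log axes) in the 12 pools. The 3 DEX pools lie at 3.15 to 7.85 on the left x axis, at 1.12 to 8.50 on the right one and at 18.4 to 21.5 on the y axis. Control pool 1 lies at 6.77 and 5.35 on the x axes and at 40.5 on the y axis.

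A pair of libraries with the same replicate number stood apart for several of the genes. In the order of values, control pool 3 and 1 week pool 3 came first for *Ccnd2* (1129 and 977, with 628 the next), *Ccnd1* (60.0 and 57.9, with 48.9 the next) and *Cdkn1b* (16.6 and 20.9, with 12.3 the next). Both also held the most *LTO1* (38.9 and 42.1) and *Gm43126*, a transcript on the other strand of *Ccnd2* (123 and 128, against 21.8 to 42.2 elsewhere). Leaving both out was a setting chosen after the data were seen. Under it *Ccnd1* at DEX against control gave no call. *Ccnd1* and *Cdkn1a* passed the test at 4 weeks against DEX (limma adjusted p = 0.0117 and 0.0237, beside 2.31% of all genes). Neither pool is part of that contrast.

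For each gene with a mean of at least 5 normalised counts, the 3 genes of most similar pattern over the 12 libraries were sought among 11614 genes, by the root mean square difference of the standardised log2 values. The nearest was *Bysl* for *Ccnd3* (0.153), its partner on the other strand, before *Itm2c* and *Tpst2*. Next came *1700023B13Rik* for *Cdkn1a* (0.202), before *Itga3* and *Pdlim1*, and *Thoc7* for *Ccnd2* (0.213), before *Ksr2* and *Diaph1*. *Ccnd1* was most like *Selenon* (0.320), *Arpc3* and *Bex1*. *Cdkn2c* was nearest to *Arsg* (0.329), *Sergef* and *Aldh3a1*, and *Cdkn1c* to *Macrod1* (0.395), *Zfp771* and *Rap1gap*. *Cdkn1b* was nearest to *2310033P09Rik* (0.403), *LTO1* and *Csrnp3*, and *Rb1* to *Nr2c2* (0.442), *Mfhas1* and *Csnk1g3*. None of the 10 genes was among the 3 nearest of another.

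The rest of the G1 machinery was described over 28 partner genes, of which 0 passed the F test and 1, *E2f1*, passed a single contrast. *E2f1*, the E2F factor that the retinoblastoma protein holds in check, held 5.98, 6.71 and 4.57 normalised counts in control and 2.57, 2.45 and 2.13 in DEX pools. It held 9.60, 9.94 and 3.34 at 1 week and 7.02, 10.3 and 12.8 at 4 weeks. DEX pools lay below all others, as for *Ccnd1*, and *E2f1* rose from DEX to 4 weeks by 1.99 on the log2 scale (limma adjusted p = 0.0452, beside 0.873% of all genes). Against control, DEX stood at −1.22 (limma adjusted p = 0.524).

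The kinases themselves gave no call. *Cdk4* held 178 to 340.3 normalised counts over the 12 pools, with a log2 fold change of −0.21 under DEX, and *Cdk2* held 1.77 to 4.46, with 0.35. *Cdk6*, at 0.673 to 5.11, stood at −1.47 under DEX (limma adjusted p = 0.683). The INK4 genes *Cdkn2b* and *Cdkn2d* stood at −0.59 and 0.17 under DEX. *Cdkn2b* had 4.31, 4.25 and 3.59 in DEX pools and 9.52, 10.4 and 7.67 at 4 weeks, with no overlap (log2 fold change 1.16, limma adjusted p = 0.137). The second E cyclin, *Ccne2*, stood at 0.01 under DEX, and the pocket protein genes *Rbl1* and *Rbl2* at −0.04 and 0.52. The median log2 fold change of the 28 partners was close to that of all genes, at 0.00 under DEX, 0.02 at 1 week and 0.13 at 4 weeks against control.

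Of 30 S phase genes that E2F factors control, 0 passed the F test and 0 passed any contrast in limma. An unadjusted p under 0.05 in the F test was held by 5 (9.21% of all genes). Their median change from control was −0.01 under DEX, 0.19 at 1 week and −0.02 at 4 weeks. By pool, the median over the list lay at 0.63, 0.38 and −0.29 at 1 week. The control pools lay at 0.19, 0.11 and −0.30. Pool 3 at 1 week thus stood below the control mean but within the range of the control pools.

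Genes of mitosis had wider changes in the median. Of 30, 2 passed the F test, *Ccnb2* and *Hmmr* (0.315% of all genes), and 23 had an unadjusted p under 0.05 in it (9.21%). The median log2 change from control was −0.64 under DEX, 1.97 at 1 week and 0.34 at 4 weeks, beside −0.02, 0.00 and 0.00 over all genes. For DEX against control only 1 of the 30 was higher and 1 lower at an unadjusted p under 0.05 (6.8% of all genes, either direction). Several of these genes held few reads under DEX (means 0.110 normalised counts for *Hmmr*, 0.164 for *Ccnb2* and 0.174 for *Pbk*), so such changes depend on the pseudocount. From DEX to 1 week 5 passed the test in limma, all of them higher, namely *Ccnb1*, *Ccnb2*, *Top2a*, *Pbk* and *Hmmr* (0.433% of all genes). The study picked these 5 on the same samples, so they are no independent evidence of the direction. *Ccnb2*, a cyclin of mitotic entry, held 0.157, 0.707 and 0.652 normalised counts in control, 0.0828, 0.409 and 0 in DEX, 7.32, 5.23 and 4.00 at 1 week and 0.832, 1.09 and 0.632 at 4 weeks. All 1 week pools stood above all others. *Cenpe*, a motor of the kinetochore, went the other way, at 7.87, 5.64 and 8.07 in DEX pools against 1.39, 0.547 and 0.451 at 4 weeks, and fell by 3.15 on the log2 scale (limma adjusted p = 0.0452). In the same 1 week pools in which *Ccnb2* stood highest, all 3 values of *Ccnd1*, *Ccnd2* and *Cdkn2a* lay within the span of the 6 control and DEX pools. All 3 of *Cdkn1a* lay below that span, as did 1 pool each of *Cdkn1c*, *Ccne1* and *Rb1*, all of them pool 2. Above it lay 1 pool each of *Cdkn1b* and *Ccnd3* and 2 pools of *Cdkn2c*.

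**Figure D5:**
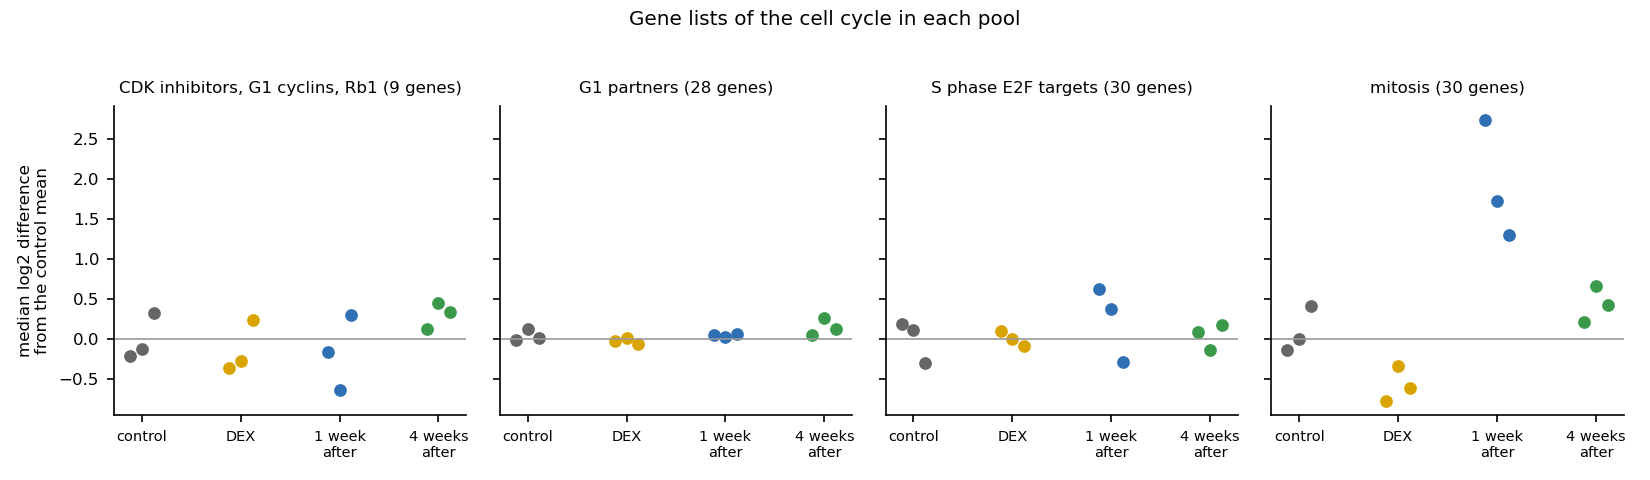
Median log2 difference from the control mean (y axis) in each of the 12 pools for 9 of the 10 genes (without Cdkn2a), 28 G1 partners, 30 S phase genes and 30 genes of mitosis. The 3 pools at 1 week lie at 1.30 to 2.75 for mitosis and at −0.64 to 0.30 for the CDK inhibitors, G1 cyclins and Rb1.

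Since *Cdkn1a* is a classic p53 target, 12 other such targets were described. Of these, 0 passed the F test or a contrast in limma, and 2 had an unadjusted p under 0.05 in the F test (9.21% of all genes). By the other tools, edgeR's quasi-likelihood test called 0 (0.667% of all genes). Its likelihood ratio test called 2, *Ccng1* and *Trp53inp1* (4.23%), and DESeq2 called 2, *Trp53inp1* and *Btg2* (3.68%). Under DEX their median log2 change was 0.49, with a range of −1.03 to 1.44 and 8 of 12 higher than control. At 1 week against DEX it was −0.07 (8 of 12 lower) and at 4 weeks 0.01 (6 of 12 lower). Against control the median was 0.05 at 1 week (7 of 12 higher) and 0.10 at 4 weeks (7 of 12 higher).

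Beside these stood 7 glucocorticoid receptor targets, of which 1, *Fkbp5*, passed the F test (0.315% of all genes). Their median log2 change from control was 0.32 under DEX and −0.55 at 1 week. *Fkbp5*, a co-chaperone of the receptor, held 80.8, 86.8 and 106 normalised counts in control and 545, 230.1 and 354 in DEX pools. It held 72.1, 19.5 and 68.3 at 1 week and 100.2, 133 and 129.7 at 4 weeks, and fell by 2.95 on the log2 scale from DEX to 1 week (limma adjusted p = 0.00581). *Zbtb16* fell by 1.66 and 1.55 from DEX to 1 and 4 weeks (limma adjusted p = 0.0372 and 0.0401). The study had picked both genes on these samples.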

How the data were processed

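Corticotrophs of 12 pools in 4 groups (n = 3 each, labels) were sequenced after SMART-V4 amplification and Nextera XT library preparation. Per the study's methods and processing notes, the authors trimmed reads with Trim Galore 0.6.5, aligned them to GRCm38 (Ensembl release 98) with STAR 2.7.1a, and counted them by strand with featureCounts 2.0.0 at mapping quality 20 or more. What the authors deposited is a normalised signal for each gene, namely CPM of a TMM-scaled library size made with edgeR. All 271881 values above 0 gave whole reads (tolerance 1e-06), 7719894 to 12848078 per library. Floors cover counting error only, as no molecular identifiers were used.

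Here 24736 genes that exceeded 0.1 in 3 or more libraries were fitted, as log2(value + 0.1), with limma 3.58.1 (lmFit, eBayes with trend, R 4.3.3), all 12 libraries in 1 model without covariates, with an F test over 3 contrasts against control and Benjamini-Hochberg adjustment at 0.05. Alternatives were edgeR 4.0.16 and DESeq2 1.42.0 on recovered reads (adjusted p that DESeq2 left NA stayed out), other pseudocounts, filters, scalings and weights, the replicate number as a block, and each library left out. Scripts were tested on simulated data. No pair of libraries was identical. Coordinates and exon lengths are from GENCODE release M21, promoters from RefSeq. Named genes are the 10, 9 set G1 partners, list genes past the F test or 1 contrast, cell type markers, and the 3 nearest patterns. The members and lists were chosen with earlier results of these data known.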

Additional observations from a re-analysis of the deposited data

Results flagged for a closer look

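Genes for which the change from control differed between 2 of the treated groups are given here. As those groups share the control pools, the difference is the contrast between them in limma. Between 1 week after withdrawal and DEX, the difference was 2.72 on the log2 scale for *Ccnb1* (adjusted p = 0.0397), 4.70 for *Ccnb2* (adjusted p = 0.00664), 3.58 for *Top2a* (adjusted p = 0.0191), 4.89 for *Pbk* (adjusted p = 0.0191) and 4.62 for *Hmmr* (adjusted p = 0.00581), all higher at 1 week. The DEX pools of *Hmmr* and *Pbk* held at most 3 reads each, those of *Ccnb2* 1, 5 and 0 reads and those of *Top2a* 6, 3 and 6, so these fitted values depend on the pseudocount and are no bounds. For the same groups it was −2.95 for *Fkbp5* (adjusted p = 0.00581) and −1.66 for *Zbtb16* (adjusted p = 0.0372).

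Between 4 weeks after withdrawal and DEX, the difference in limma was 1.99 for *E2f1* (adjusted p = 0.0452), −3.15 for *Cenpe* (adjusted p = 0.0452) and −1.55 for *Zbtb16* (adjusted p = 0.0401). For *Ccnd3* every DEX pool lay below the control mean and every pool at 4 weeks above it, on the log2 scale, with a difference of 0.656 that missed the threshold in limma (adjusted p = 0.473).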

How the results depend on the processing

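Of the values of single genes recomputed under the alternatives, 1771 kept direction and side of the threshold and 33 newly passed it. In the other 68, from 22 of 60 fold changes, the sign turned or the change went to 0, by more than 1 standard error in 8 (of *Cdkn1b*, *Cdkn1c*, *Ccnd3*, *Ccne1* and *Rb1*), and none of them was called before or after. Counts of the 10 genes called in the F test rose from 0 to 1 with plain CPM, edgeR's likelihood ratio test or both control pool 3 and 1 week pool 3 left out (a setting chosen after seeing the data), and to 2 with array weights or DESeq2. Over all genes the F test gave 78, and 127 with plain CPM, 165 with edgeR's quasi-likelihood test, 259 without the 2 pools, 734 with DESeq2, 1047 with the likelihood ratio test and 1069 with array weights. For DEX against control the count of the 10 was 1 with array weights or DESeq2 (0.671% and 0.977% of all genes). For 1 week against DEX it was 1 with plain CPM (1.09%), array weights (2.29%) or the likelihood ratio test (2.88%). With DESeq2 it was 2 (3.02%). For 4 weeks against DEX it was 1 with plain CPM (0.932%), quantile normalisation (0.784%) or the likelihood ratio test (2.72%). It was 2 with DESeq2 (3.21%) or without the 2 pools (2.31%). With array weights it was 4 (*Cdkn1a*, *Cdkn2c*, *Ccnd1* and *Ccnd3*, beside 5.26% of all genes). In limma the shares of these 3 contrasts were 0.121%, 0.433% and 0.873%.

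In the lists, array weights called 2 G1 partners, 4 S phase genes and 22 mitosis genes. DESeq2 called 1, 2 and 17, the likelihood ratio test 1, 2 and 19, and the fit without the 2 pools 1, 1 and 6. The quasi-likelihood test called 1 S phase gene and 6 mitosis genes, and no filter on low values left 1 mitosis gene. Of 12 p53 targets, where limma called 0, the likelihood ratio test and DESeq2 called 2 each. Of 7 glucocorticoid targets, where limma called 1, the quasi-likelihood test and DESeq2 called 2, and the likelihood ratio test and array weights 3.

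Leaving out 1 library at a time gave 0 to 1 of the 10 in the F test and for DEX against control, 0 to 2 for 4 weeks against DEX, 7 (without DEX pool 3) to 186 (without 1 week pool 3) of all genes, 0 to 1 G1 partners, 0 to 1 S phase genes and 0 to 8 mitosis genes. In the F test and for DEX against control the 1 call (*Ccnd1*) came without 1 week pool 3 (0.777% and 0.276% of all genes). At 4 weeks against DEX, 1 call (*Cdkn1a*) came without DEX pool 2. There were 2 calls (*Cdkn1a* and *Ccnd1*) without 1 week pool 2 and also without 1 week pool 3. Without 1 week pool 3 that contrast held 1.68% of all genes. The pools left in a reduced group were assumed to vary like those of the other groups.

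The labels tie the replicate numbers to nothing shared, and they were not taken to pair the samples, since 7 of 18 same-numbered pairs of libraries had a correlation over 0.1 (−0.294 to 0.397). All 3 pairs between control and 1 week were among the 7 (0.202, 0.136 and 0.397), and 8 of 12 libraries correlated best with their own number, which is a hint from the data and not from the design. With the number as a replicate block, 1 of the 10 was called at 4 weeks against DEX, beside 0.974% of all genes. This was *Ccnd1* (limma adjusted p = 0.0425). The other contrasts and the F test called 0 of the 10, and the F test called 85 of all genes. Plain CPM moved the median change of all genes against DEX by −0.33 at 1 week and −0.25 at 4 weeks. Under it the sign turned for *Cdkn1c*, *Ccnd2* and *Ccne1* at 4 weeks against DEX, *Cdkn2c* for DEX against control and *Rb1* at 1 week against control, and quantile normalisation turned *Cdkn1b* and *Ccnd1* at 4 weeks against 1 week, none of them called. The cause of these shifts was not tested. Depth limits *Cdkn2a*.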
